A study of Mus musculus with 24 samples.

Results

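AK018904 and uc029xya.1 are the 2 long non-coding RNAs (lncRNAs), of 26 testis lncRNAs for which the study designed RT-PCR primers, whose microarray probes were well above background on all 9 arrays of the mouse lines F9, GC-1 and GC-2. They were read here on all 24 arrays, among 60804 transcript probes. The choice used the detection flag that Agilent's software gives to a signal clearly brighter than its background, so detection in the lines and the excess in testis are descriptions of these RNAs and no tests of them. The level differences between the 3 lines were not used to choose them and were tested.

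The 8 groups, with 3 arrays each, were testis, brain, liver, heart and kidney of male ICR mice aged 8 weeks, and 3 cell lines labelled male. Their RNA was hybridized in a single colour (Cy3) to Arraystar lncRNA arrays. F9 is an embryonal carcinoma line grown on gelatin without retinoic acid, GC-1 an immortalized spermatogonial line and GC-2 an immortalized spermatocyte line; each is a single established line, and no group was treated. The methods state biological replicates in all cases where they describe the tissues, and for the lines they state collection at passage 3 or 4. Whether these words make the arrays of a line separate cultures is unclear, and if not, the p-values measure the spread between these arrays, which may be technical. Of 60 marker genes in 12 lists for the tissues, testis cells and lines, 8 could be identified on the array, too few to check the labels. A marker could be identified only where the study lists it, and some of its lists were chosen on these same arrays. The flags of these 8 are therefore a description and no test. Among these 8, Zfp42, a marker of pluripotent cells, and Stra8, a gene of germ cells entering meiosis, were well above background on the 3 F9 arrays and on no array of GC-1 or GC-2. The Gap43 probe of the brain list, an lncRNA of that neuronal gene, was well above background on all 9 line arrays and at a level of 5.16 ± 0.45 in F9 (log2 over the array's 75th percentile; SD, n = 3). Star, of the Leydig cell list, reached the flag on every GC-1 and GC-2 array and on 1 F9 array. The probes of Snap25 and Mobp (brain), Nrap (heart) and Apoa1 (liver) also read lncRNAs of these genes and not the marker mRNAs. These probes reached the flag on no line array.

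An lncRNA is a long transcript without a known protein product. Many lncRNAs are made in the testis and hardly elsewhere, and an antisense lncRNA is read from the strand opposite to a gene that it overlaps. The mouse Y chromosome carries gene families in many near-identical copies, a number of which are transcribed in spermatids.

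AK018904 lies on the minus strand of chromosome 17 from 32634702 to 32635134 (GRCm38). It spans 433 bases, the same as its listed RNA length. The study's annotation classes it as exonic antisense to Cyp4f37, a protein-coding gene of the cytochrome P450 family 4 that runs on the plus strand from 32621319 to 32636184. AK018904 thus falls inside the gene, 1050 bases before its last base. Cyp4f37 sits among 9 other Cyp4f genes on chromosome 17, of which 7 are protein coding and 2 are pseudogenes in RefSeq. The next gene downstream of Cyp4f37 is Cyp4f38-ps, a pseudogene that starts 6477 bases beyond it. No Cyp4f gene could be identified on the array, so the sense partner has no value here.

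uc029xya.1 carries the gene name LOC100041346, which is Gm20871 in RefSeq, a transcribed pseudogene on chromosome Y from 59606710 to 59632758 (GRCm38). The transcript's own position was not given in the sources used here. Because genes in this part of the Y chromosome have near-identical copies, the probe may read several of them, and its values are uncertain in that respect.

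With these primers the study amplified each RNA apart from the array. Where they lie on each RNA was not mapped here. They are printed 5′ to 3′. In the reverse primers of AK018904 the capitals mark the 20 bases that its RT-PCR and quantitative assays share.
AK018904 RT-PCR forward: gtgacaggatggggactctg
AK018904 RT-PCR reverse: aGGTGAGACCAGATGGCTTGT
AK018904 qRT-PCR forward: ttctctgagcagagggtggt
AK018904 qRT-PCR reverse: GGTGAGACCAGATGGCTTGT
uc029xya.1 RT-PCR forward: ttgtttcctatgcggttggg
uc029xya.1 RT-PCR reverse: tcaatgcttgttgttctttttgaca
The reverse primer of the AK018904 RT-PCR assay is the quantitative one with 1 more base at its 5′ end, and the forward primers differ. The uc029xya.1 primers hold 10 of 20 and 8 of 25 bases of G or C.

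AK018904 was a bright testis RNA and a dim one everywhere else. In testis its processed signal, the intensity after the software's background subtraction, was 28930, 27345 and 31226. The F9 arrays read 58.0, 34.0 and 38.9. The signals were 33.1, 25.4 and 27.3 on the GC-1 arrays and 21.3, 27.7 and 29.4 on those of GC-2. All 9 line arrays were well above background, yet close to the limit of that flag: the signal was between 1.53 and 4.24 times the lowest signal given the flag on the same array. The software's own error on these signals was 11.3% to 17.3%.

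In the 4 other tissues the AK018904 signal was 31.4, 10.6 and 20.4 in brain, 15.3, 6.41 and 13.99 in heart, 12.4, 13.8 and 11.2 in kidney, and 5.48, 6.18 and 2.96 in liver. Of these 12 arrays, 3 were well above background (brain replicates 1 and 3 and heart replicate 1). No array of kidney or liver was. A weaker flag, for a signal positive and significant over background, was set on 10 of the 12, all but liver replicates 1 and 3.

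uc029xya.1 was also bright in testis, with signals of 29047, 15887 and 18361. The F9 arrays read 84.2, 33.2 and 35.9, those of GC-1 40.4, 27.7 and 26.8, and those of GC-2 485, 137 and 131. GC-2 therefore stood above both other lines on every array, and GC-2 replicate 1 was the brightest array outside testis. The line signals were between 1.84 times (GC-1) and 34.8 times (GC-2) the lowest signal well above background on their array, with a software error of 10.0% to 16.1%.

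**Figure D1:**
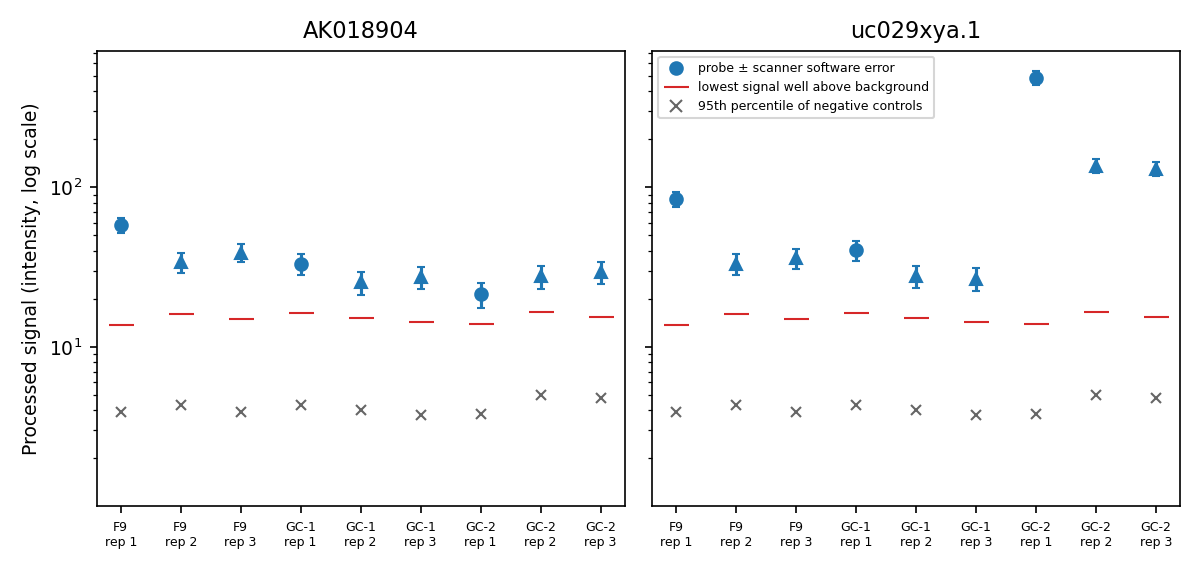
Processed signal (intensity, log scale) of each lncRNA on the 9 line arrays (circles slide 1, triangles slide 3; bars are the software's error), with the lowest signal well above background and the 95th percentile of the array's negative controls. AK018904 sat within 1.53 to 4.24 times that lowest signal on every array, while uc029xya.1 reached 34.8 times it on GC-2 replicate 1.

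In the other tissues uc029xya.1 split the heart arrays. The heart signals were 99.0, 127 and 13.8; the first 2 were well above background and brighter than every F9 and GC-1 array, and the third was not above background by that flag. Brain gave 24.2, 6.35 and 5.71, with the first array above background. Kidney gave 9.85, 3.14 and 3.28 and liver 6.26, 3.29 and 3.41, none of them well above background. No array was saturated for either lncRNA.

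For comparison between arrays the signals were put on the log2 scale relative to the 75th percentile of all transcript probes on the array, so that a level of 0 equals that percentile. The percentile corresponded to an intensity of 65.5 to 146 on the line arrays and 305 to 384 on the testis arrays. The number of probes well above background was 23525 to 28655 on a line array and 34999 to 37393 on a testis array. The arrays lay on 3 slides: slide 1 held replicate 1 of every group, slide 2 the other testis, brain, kidney and liver arrays, and slide 3 the other heart and line arrays.

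On this scale the level of AK018904 was 6.42 ± 0.16 in testis (SD, n = 3, as for all levels). F9 followed at −0.90 ± 0.18, then GC-1 at −1.97 ± 0.11 and GC-2 at −2.23 ± 0.48. It was −2.76 ± 0.25 in kidney, −2.83 ± 0.67 in heart, −2.88 ± 0.60 in brain and −3.09 ± 0.74 in liver. Testis and F9 stood clear of the next group in this order, and no other neighbours did: the arrays of GC-1 and GC-2 overlapped, and those of GC-2 overlapped with kidney. For GC-2 and kidney this overlap joins a line where the probe was well above background with a tissue where it was not.

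The level of uc029xya.1 was 5.90 ± 0.30 in testis, 0.76 ± 0.84 in GC-2, −0.51 ± 1.54 in heart, −0.77 ± 0.41 in F9 and −1.84 ± 0.13 in GC-1. Liver followed at −3.26 ± 0.29, brain at −3.86 ± 1.05 and kidney at −4.17 ± 0.74. Testis stood clear of GC-2, F9 of GC-1 and GC-1 of liver, whereas heart overlapped with both GC-2 and F9. The SD of heart was the widest of any group for this lncRNA, from 1 dim array and 2 brighter ones.

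**Figure D2:**
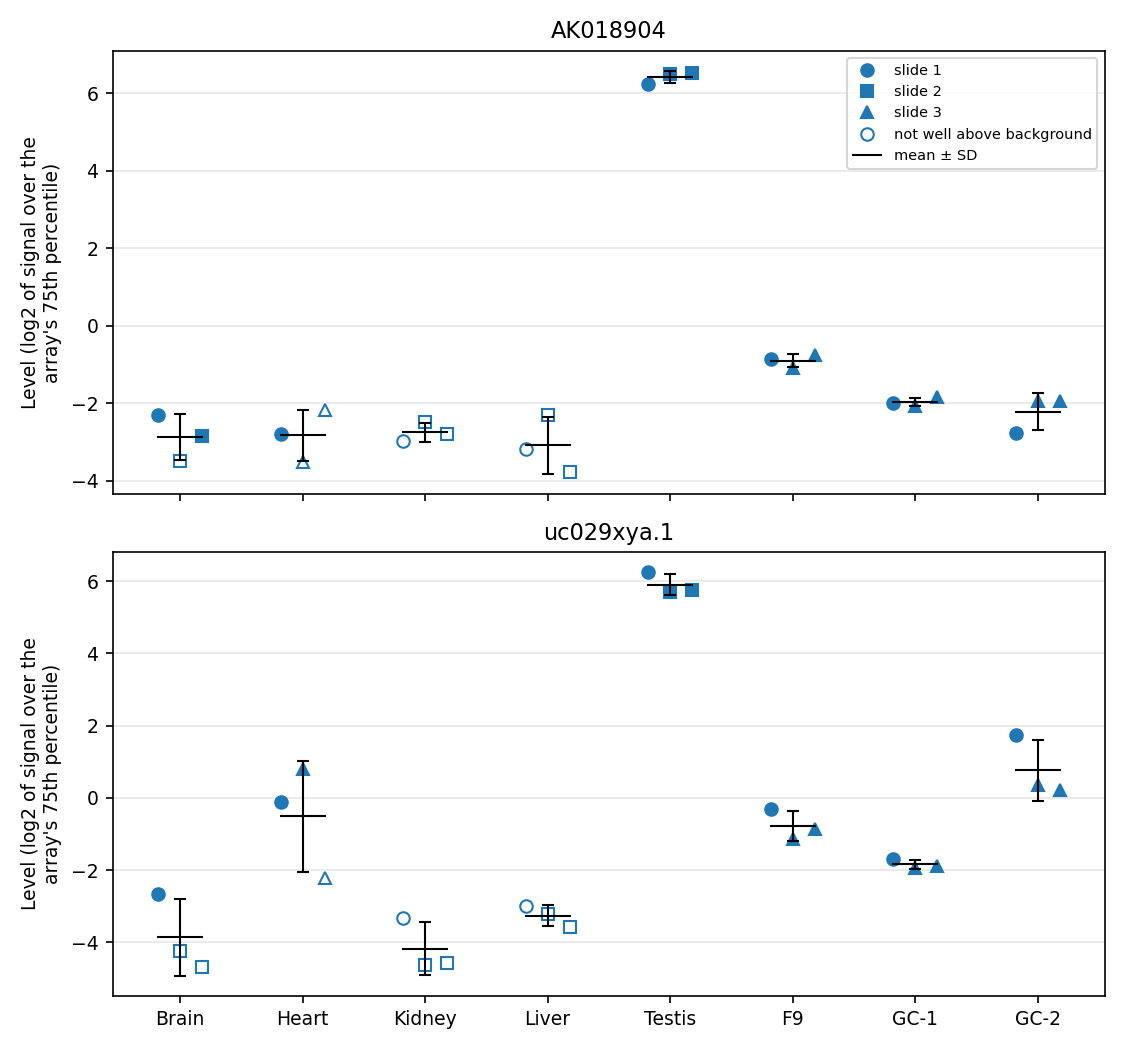
Level (log2 of the signal over the array's 75th percentile) of AK018904 and uc029xya.1 on the 24 arrays, by group, with marker shape for the slide, open markers for arrays not well above background, and bars for mean ± SD (n = 3). Testis lies near 6 in both panels; the lines lie within −2.78 to −0.75 for AK018904 and from −1.94 to 1.73 for uc029xya.1.

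As a description of what the choice already used, AK018904 was 159-fold higher in testis than in F9, 334-fold higher than in GC-1 and 400-fold higher than in GC-2. The same folds for uc029xya.1 were 102, 214 and 35.2. Against the mean of the lines, testis was higher by 8.11 for AK018904 and by 6.52 for uc029xya.1 on the log2 scale. Under this scaling the median of all probes was itself lower in testis, at −1.50, so relative to it the differences were 9.61 and 8.01. Testis was at least 540-fold above kidney and at least 209-fold above liver for AK018904, where no array was well above background. The bounds for uc029xya.1 were at least 390-fold above kidney and at least 146-fold above liver. Each bound puts the lowest signal well above background on an array in place of a dimmer probe. Above heart, where 2 of 3 arrays measured uc029xya.1, testis was 85.0-fold higher, and 47.2-fold without the dim heart replicate 3. This value is a plain ratio of means and no bound. Some other scalings and normexp background correction moved testis minus the mean of the lines by over 1.5-fold. It ran from 7.07 to 9.65 for AK018904 and from 5.75 to 8.05 for uc029xya.1. Scaling to the median of all probes left it nearly unchanged, at 8.03 and 6.43. In whole tissue and whole cultures, fewer cells that make an RNA and less of it per cell cannot be told apart.

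Whether the lncRNAs differ between the lines was tested with limma on the 9 line arrays, with Benjamini-Hochberg adjustment over all 60804 probes and a call at an adjusted p of 0.05 or less. AK018904 was higher in F9 than in both other lines. The difference from GC-1 was 1.07 ± 0.27 (SE; 95% interval 0.46 to 1.67; limma adjusted p = 0.0172), a fold of 2.09, and the difference from GC-2 was 1.33 ± 0.27 (0.72 to 1.93; limma adjusted p = 0.00574), a fold of 2.51. Every F9 array was above every array of the other lines. With normexp background correction both calls stayed, at folds of 1.43 and 1.56. Of all probes, 23.5% were called between F9 and GC-1 and 23.3% between F9 and GC-2, so a call in these comparisons is common. GC-1 minus GC-2 was 0.26 ± 0.27 and was not called (limma adjusted p = 0.770), with an interval from −0.34 to 0.86.

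On this scale the probes were not centred alike in the 3 lines. The median of all probes was 0.40 higher in F9 than in GC-1 and 0.52 higher than in GC-2, which leaves 0.67 and 0.80 for AK018904 relative to it. Over the 19294 probes well above background on every testis and line array the median was 0.18 and 0.13 higher, which leaves 0.89 and 1.19. Scaled to the median of the probes well above background on each array, the difference from GC-1 was 0.73 and lost its call (limma adjusted p = 0.0712). It also lost its call without F9 replicate 3 (limma adjusted p = 0.0643) and without GC-1 replicate 2 (limma adjusted p = 0.0659). On slide 1 alone the difference from GC-1 was 1.13 and on slide 3 it was 1.03; from GC-2 it was 1.92 on slide 1 and 1.03 on slide 3.

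uc029xya.1 had another order, with GC-2 highest. GC-1 minus GC-2 was −2.60 ± 0.40 (−3.49 to −1.71; limma adjusted p = 0.00261), so GC-2 was 6.06-fold higher, in a comparison where 9.23% of all probes were called. With normexp background correction, whose offset of 50 exceeds every GC-1 signal of this probe, the fold was 2.72 and the call stayed. F9 minus GC-2 was −1.53 ± 0.40 (−2.43 to −0.64; limma adjusted p = 0.0203), so GC-2 was 2.90-fold higher, or 1.88-fold with normexp. F9 exceeded GC-1 by 1.06 ± 0.40 (0.17 to 1.96), which was not called (limma adjusted p = 0.0879) although the arrays did not overlap. With the slide as a block it was called (limma adjusted p = 0.0168), and within slides it was 1.38 on slide 1 and 0.91 on slide 3.

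The GC-2 arrays were uneven for uc029xya.1, replicate 1 having a level of 1.73 against 0.35 and 0.20. It was also the array on which AK018904 was lowest in the lines, at −2.78 against −1.95 on both others. Without it, GC-1 minus GC-2 was −2.11 (limma adjusted p = 0.00173) and F9 minus GC-2 was −1.05 (limma adjusted p = 0.0253) for uc029xya.1, both still called. For AK018904 the F9 excess over GC-2 was then 1.05 (limma adjusted p = 0.00770), and GC-1 minus GC-2 turned to −0.015 (limma adjusted p = 0.975). Within slides, GC-1 minus GC-2 for uc029xya.1 was −3.43 on slide 1 and −2.18 on slide 3, and F9 minus GC-2 was −2.05 and −1.28. The call between F9 and GC-2 was lost without F9 replicate 2 (limma adjusted p = 0.0757) and without F9 replicate 3 (limma adjusted p = 0.0646).

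**Figure D3:**
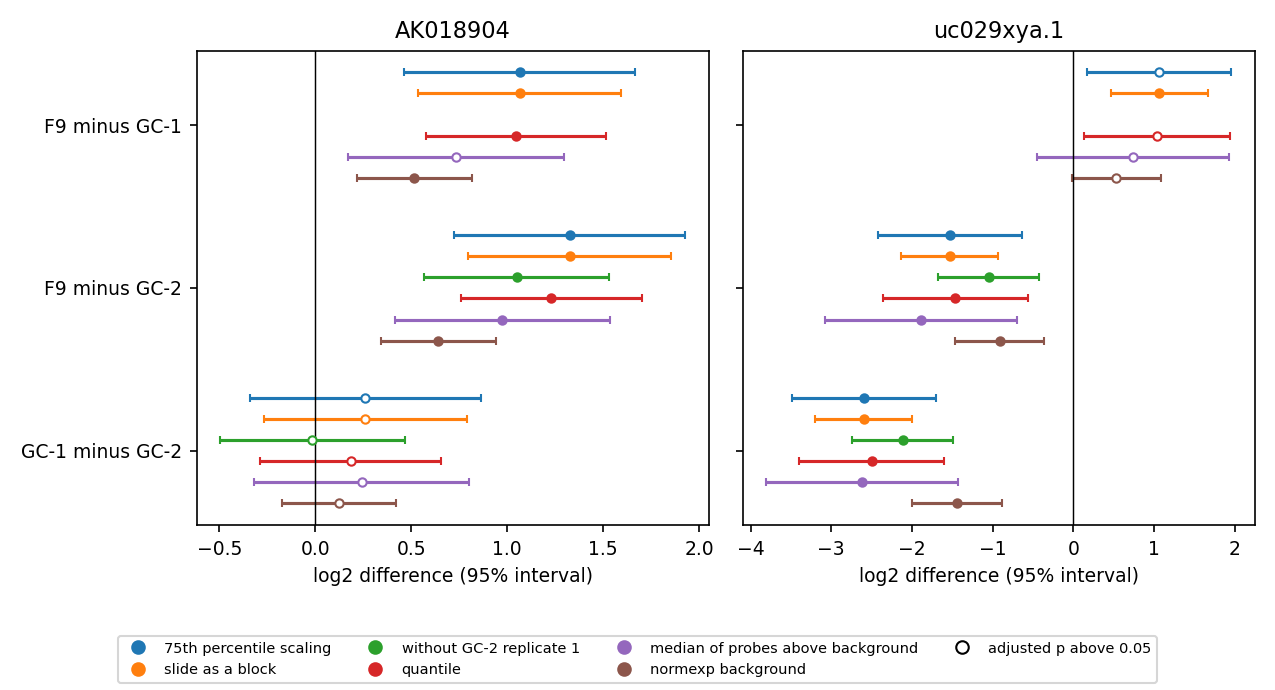
Log2 differences between lines with 95% intervals for both lncRNAs (limma), under the scaling of the text, with the slide as a block, without GC-2 replicate 1 where it enters the comparison, and under 3 other scalings or background corrections; open markers have an adjusted p above 0.05. AK018904 lies above 0 for F9 against both other lines and around 0 between GC-1 and GC-2, and uc029xya.1 lies below 0 for both comparisons with GC-2.

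Both lncRNAs are among the 55 testis-specific lncRNAs that the study lists for all 3 lines, a list chosen on these same arrays. Its 53 other members were also well above background on every testis and line array. As a background for these, 19294 probes were well above background on the same arrays. Between F9 and GC-1, 19 of the 53 were called higher in F9 and 2 higher in GC-1, beside 12.9% and 10.5% of all probes and 20.7% and 15.1% of those 19294. Their median difference was 0.69, against 0.40 over all probes and 0.18 over the 19294. Between F9 and GC-2, 8 were called higher in F9 and 4 higher in GC-2, beside 13.4% and 9.89% of all probes and 19.1% and 15.6% of the 19294. The median of 0.25 was below that of all probes (0.52) and above that of the 19294 (0.13). Between GC-1 and GC-2, 4 were called higher in GC-2 and 0 higher in GC-1 by limma, beside 4.22% and 5% of all probes and 6.58% and 5.6% of the 19294, with a median of −0.36 against 0.12 and −0.016. At an unadjusted limma p of 0.05 or less, 14 were higher in GC-2 and 0 in GC-1. For all probes the shares were 9.37% and 9.73%, and for the 19294 they were 15.6% and 12.1%. The methods' t-test gave 11 higher in GC-2 and 1 in GC-1 without adjustment. The shares were 8.66% and 9.2% of all probes and 16.4% and 14.7% of the 19294. After adjustment it gave 2 and 0, beside 2.29% and 2.79% of all probes and 4.36% and 4.18% of the 19294. Without adjustment it gave 22 higher in F9 and 4 in GC-1. That stands beside 17.9% and 13.1% of all probes and 29.7% and 21.6% of the 19294. For F9 and GC-2 it gave 11 and 7, beside 26.5% and 19.9% of the 19294. By size of difference, set beside these 53, uc029xya.1 ranked 20 of 54 between F9 and GC-1, 8 between F9 and GC-2 and 1 between GC-1 and GC-2, and AK018904 ranked 20, 12 and 40.

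The other 24 RT-PCR lncRNAs were well above background on all 3 testis arrays, as both members were, but on few line arrays. The nearest to the rule was NR_033583 (Spn-ps), on 2 of the 9 line arrays, both of GC-1, where its level was −2.58 ± 0.19. AK018981 and NR_040326 reached the flag on 1 F9 array each, NR_015547 on 1 GC-1 array and uc009dqq.1 on 1 GC-2 array. The remaining 19 reached it on none. Detection on all 9 line arrays was seen for 32.8% of all probes and for 57.4% of those well above background on all testis arrays.

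**Figure D4:**
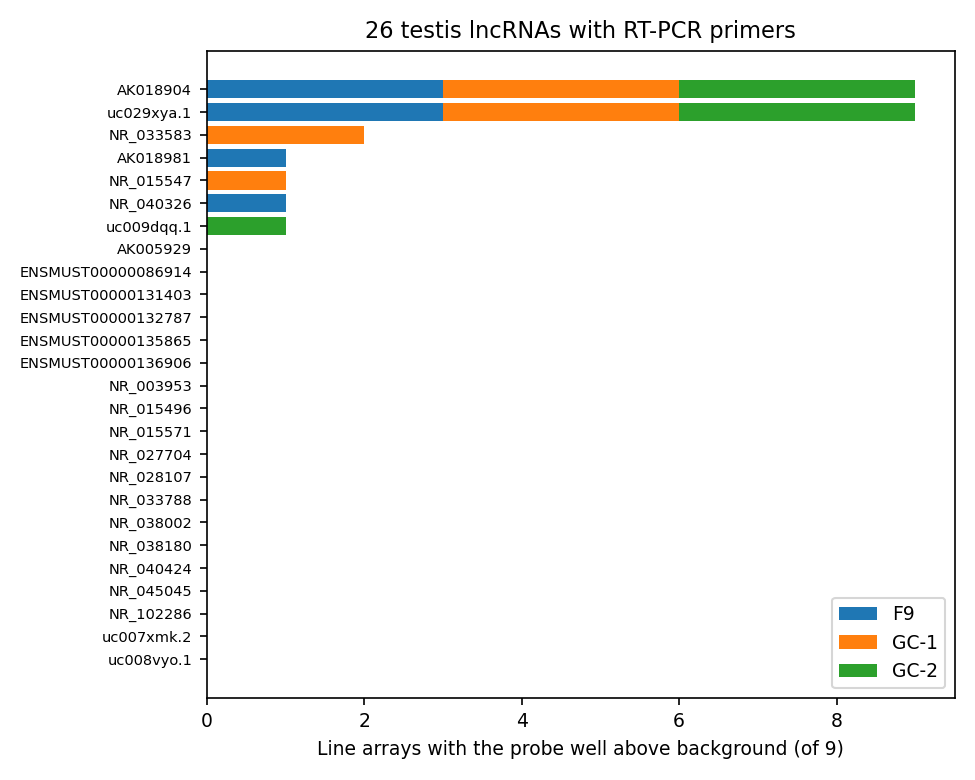
Number of the 9 line arrays on which each of the 26 testis lncRNAs with RT-PCR primers was well above background, by line; these flags chose AK018904 and uc029xya.1. Both stand at 9, the next at 2, 4 others at 1 and 19 at 0.

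The transcripts most like each lncRNA were sought among 1878 probes that the study's tables name and that were well above background on every testis and line array, by Pearson's r of the level over the 24 arrays. The points share arrays, and testis stands far from the other groups in all of them. For AK018904 the first 3 were the mRNAs of Actl7a (r = 0.967), an actin-like protein of sperm, Sept12 (r = 0.956), a septin of the sperm tail, and Eid3 (r = 0.949). The study lists these 3 as testis-specific mRNAs in F9, GC-1 and GC-2, chosen on these same arrays, so a high r over the 24 arrays restates that choice. Over the 9 line arrays alone their r with AK018904 was −0.26, −0.14 and 0.08, and without GC-2 replicate 1 it was −0.06, −0.29 and −0.76. Over the 21 arrays other than testis it was 0.55, 0.64 and 0.55.

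For uc029xya.1 the closest was Gm20736 (r = 0.991 over 24 arrays), a protein-coding gene on chromosome Y from 65377690 to 65403913 (GRCm38). The study lists Gm20736 too as a testis-specific mRNA in F9, GC-1 and GC-2. Here r stayed high away from testis, at 0.970 over the 21 other arrays, 0.984 over the 9 line arrays and 0.969 over the 8 line arrays without GC-2 replicate 1. The next were Gm13863, an lncRNA inside Agbl3 (r = 0.934), and Sept12 (r = 0.929). Over the line arrays their r was 0.65 and 0.27, and without GC-2 replicate 1 it was 0.27 and 0.53. Gm13863 was not confined to testis: its mean level ran from 4.90 in kidney to 7.57 in testis. Gm20736 gave 95.01, 144 and 8.18 on the heart arrays, so the split of heart into 2 brighter arrays and 1 dim one was seen for both probes. It gave 483, 132 and 149 in GC-2, again with replicate 1 highest.

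Gm20736 was picked for its likeness over arrays that include those of the lines, so its line differences restate that choice and are given as a description. GC-1 minus GC-2 was −2.53, F9 minus GC-2 was −1.36 and F9 minus GC-1 was 1.17 on the log2 scale. RefSeq places the genes 5744931 bases apart on chromosome Y with 24 other genes between them. The letters of the probes were not used here, so 1 set of transcripts read by both probes and separate transcripts that vary together cannot be told apart.

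**Figure D5:**
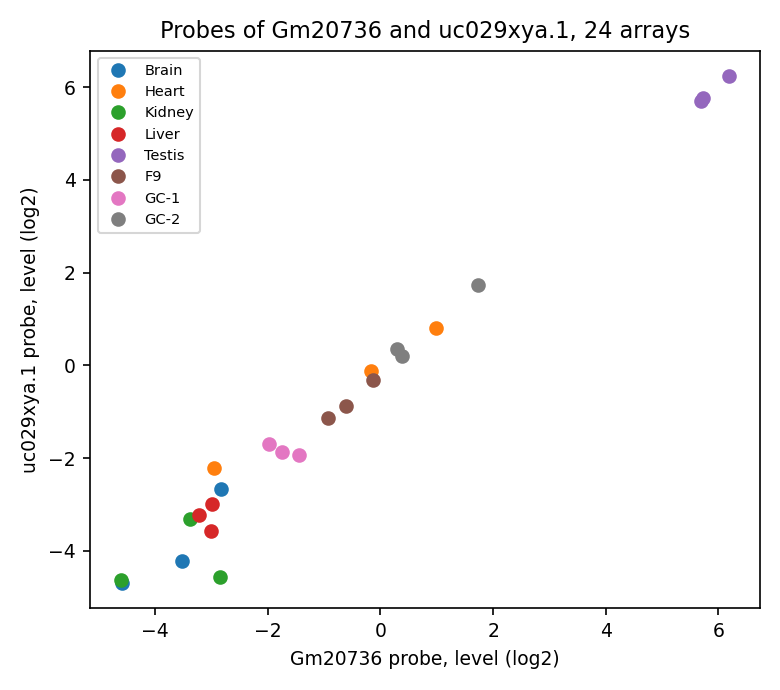
Level (log2 of the signal over the array's 75th percentile) of the uc029xya.1 probe against that of the Gm20736 probe on the 24 arrays, coloured by group. The points run along a line from kidney and brain at the bottom through GC-1, F9, heart and GC-2 to testis at the top (r = 0.991), with most scatter among arrays not well above background.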

How the data were processed

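Per the study's methods, total RNA was labelled with Cy3, hybridized and quantified with Agilent's Feature Extraction, version 11.5.1.1 per the file headers. The authors deposited, for each of 24 arrays, the intensity of every spot and its flags, and a table of the same processed intensity, which was checked against the array files and differed by at most 0.000228 of the value. Neither was normalized between arrays. Here log2 of the processed intensity minus the 75th percentile over 60804 transcript probes was fitted with limma 3.58.1 in R 4.3.3. The fit used the 9 line arrays without a slide term, and the test was tried on simulated data. Figures were drawn with matplotlib 3.10.9. Normexp used the median signal and median background with an offset of 50, as the mean signal was not in the columns used.

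Names and positions came from the supplementary tables, which identified 3456 probes (5.68%), and genes from RefSeq (GRCm38). Folds and p-values listed there by the authors were not used. Named are both lncRNAs, the RT-PCR lncRNAs nearest to the rule, and the 3 transcripts most like each. The lncRNAs, the gene lists and the rules were chosen with earlier results of these data known. Precision is limited by having 3 arrays a group. The labels name Trizol and the methods another kit for RNA extraction.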

Additional observations from a re-analysis of the deposited data

How the results depend on the processing

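Each line difference was recomputed under 11 other settings and with each array left out in turn. GC-1 minus GC-2 for uc029xya.1 kept its direction throughout and its call in all but the methods' t-test (adjusted p = 0.0814; difference −2.60 as before). That t-test also lost the call between F9 and GC-2 for AK018904 (1.33, adjusted p = 0.0666) and for uc029xya.1 (−1.53, adjusted p = 0.168). It found 18801, 17343 and 10861 transcripts before adjustment for F9 against GC-1, F9 against GC-2 and GC-1 against GC-2, and 11422, 8325 and 3091 after it, where limma called 14259, 14156 and 5610. The latter counts fell to 4338, 4193 and 1963 with a fold of at least 5 asked as well. With all 24 arrays in the fit, F9 minus GC-2 for uc029xya.1 lost its call (−1.53, limma adjusted p = 0.0673). Scaled to the median of probes well above background, F9 minus GC-1 for AK018904 was 0.73 and not called. F9 minus GC-1 for uc029xya.1, at 1.06, was called with dim probes filtered out (limma adjusted p = 0.0472) and with the slide as a block (limma adjusted p = 0.0168), under which the count for F9 against GC-2 rose to 32484. Normexp reduced every line difference without changing a call: F9 minus GC-1 and F9 minus GC-2 for AK018904 were 0.52 and 0.64, and GC-1 minus GC-2 for uc029xya.1 was −1.44.

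Deviations from the line means correlated at 0.052 to 0.291 within slides and −0.222 to −0.114 across them. Same-numbered line arrays shared a slide, so they do not test pairing by number. Of their 9 pairs, 8 exceeded 0.1 (lowest 0.065), and an array matched its own number best in 13 of 18 choices. The replicate block called F9 minus GC-1 for uc029xya.1 (1.06, limma adjusted p = 0.0310) and no other lncRNA call changed. It called 16691, 18544 and 6884 transcripts in the 3 comparisons.

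With 1 array left out, AK018904 ranged from 0.99 to 1.16 for F9 minus GC-1, from 1.05 to 1.46 for F9 minus GC-2 and from −0.015 (without GC-2 replicate 1, the sign turned) to 0.40 for GC-1 minus GC-2. The ranges for uc029xya.1 were 0.84 to 1.24, −1.81 to −1.05 and −2.88 to −2.11. Counts ranged from 10582 to 17297 for F9 against GC-1, from 10105 to 31630 (without F9 replicate 1) for F9 against GC-2, and from 3614 (without GC-1 replicate 3) to 6115 for GC-1 against GC-2; without GC-1 replicate 2 the last was 3671.

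The excess of testis moved up or down with the scaling and stayed positive. Testis minus the mean of the lines was 7.07 for AK018904 and 5.75 for uc029xya.1 with normexp, 9.65 and 8.05 with the percentile taken over probes well above background on all arrays, 9.36 and 7.77 with the median of the probes well above background on the array, and 9.05 and 7.39 with quantile normalization. The lowest bound over any other tissue for AK018904, 209-fold and set by liver with its high floor, was 116-fold, 521-fold, 836-fold and 420-fold in that order. For uc029xya.1 it was 85.0-fold, set by heart, and 49.1-fold, 173-fold, 176-fold and 158-fold in the same order. Without 1 array it ranged from 47.2-fold to 134-fold.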
